A study of Homo sapiens with 14 samples.

Results

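The nuclear genes that code for subunits of the mitochondrial respiratory chain and of ATP synthase were followed in a gene-level table of RNA polymerase II (RNAPII) on chromatin. Members were chosen by symbol alone. They are the nuclear protein-coding genes named NDUFA, NDUFB, NDUFC, NDUFS and NDUFV (NDUFAF assembly factors left out), UQCR, COX4I and COX5 to COX8, ATP5F and ATP5M, with SDHA, SDHB, SDHC and SDHD. There were 62 members among the 12425 genes of the table, of which 29 belong to complex I, 4 to complex II, 6 to complex III, 10 to complex IV and 13 to ATP synthase. NDUFA4 is counted with complex IV, where its protein is now placed. RefSeq holds 83 genes that the rule names, and the other 21, among them NDUFA2, NDUFB8, UQCRQ, COX6A1, COX7C and COX8A, were not analysed here.

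The cells were BJ hTERT, a single line of human foreskin fibroblasts that grows without limit because it carries telomerase. Chromatin immunoprecipitation and sequencing (ChIP-seq) was done with 2 antibodies, against the N-terminal domain of Rpb1 (total RNAPII) and against Rpb1 with phosphate on serine 2 of its C-terminal repeats (Ser2). With each antibody there was 1 library at 14 h that has no treatment name, and 1 library at each of 16, 19 and 22 h from cells given the solvent DMSO or an inhibitor of the kinase ATR (ATRi), which guards DNA replication. The series asks how ATR inhibition bears on RNAPII during S phase. The labels do not say what the hours count from, name no compound for ATRi, and the protocol text lists histone antibodies only. No condition had a replicate, so p-values below measure the spread between these libraries alone, with hours or treatments standing in for replicates.

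The respiratory chain carries electrons from NADH (through complex I) and succinate (through complex II) by way of complex III to oxygen at complex IV, and ATP synthase makes ATP from the proton gradient that results. The mitochondrial genome codes for a few core subunits and the nucleus for all others, so the genes described here must supply matched parts from sites scattered over many chromosomes. The factors NRF1, GABP (of the ETS family) and YY1 are known to bind at many of their promoters. Ser2 phosphate marks RNAPII that is elongating and is known to build up towards the ends of genes, while the total antibody also reads RNAPII held near the start.

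Promoters were searched because the members share a function and not a location. RefSeq windows of 300 bases (GRCh38.p14, 250 before to 50 after the start) were matched to 48 of the 62 members, and 6 words were searched on both strands. The NRF1 word GCGCNTGCG was found in 14 of the 48 windows (29.2%), against 16.0% of the windows of 8820 listed protein-coding genes and 7.47% of all 35116 windows. The ETS word CCGGAAG, which GABP can read, was also in 14 (29.2%), against 20.8% and 10.3%. The YY1 word AANATGGCG was in 12 (25.0%), against 7.63% and 3.19%. The first 3 words together marked 29 of 48 members (60.4%, against 37.9% of listed genes), and 11 members held at least 2 of the 3 kinds (22.9%, against 6.27%).

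The other 3 words were no more frequent in the members than in listed genes, or were rare. The SP1 word GGGCGG was in 28 windows (58.3%, against 72.0% of listed genes and 45.0% of all windows). The TATA word TATAAA was in 4 (8.33%, against 4.85% and 11.5%) and the E2F word TTTNGCGC in 2 (4.17%, against 3.21% and 1.79%). Different words overlapped at 2 places, an ETS with an SP1 word in NDUFS3 and a YY1 with an E2F word in NDUFS6. A match describes the letters only and shows no bound factor.

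Place within the window differed by word. Of the 12 YY1 words 11 began at or after the start, at a median of 15 bases into the gene, while in all listed genes 62.4% of 696 YY1 words did so. None of the 23 NRF1 words began there (7.07% of 2038 in listed genes), and their median lay 74 bases before the start. Of the 17 ETS words 3 began at or after the start (16.3% of 2271 in listed genes). Adjacent NRF1 matches 1 base apart, as in ATP5F1C and SDHD, overlap and read 1 site on both strands.

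The first 5 windows printed here show these arrangements and the last belongs to the member with the largest Ser2 difference at 19 h described below. They are SDHA (chr5:218070-218369, + strand), with NRF1 words 165, 116, 67 and 18 bases before its start; UQCRFS1 (chr19:29213102-29213401, - strand), with NRF1 31 before and YY1 29 after; SDHB (chr1:17053983-17054282, - strand), with ETS 128 before and YY1 10 after; NDUFS1 (chr2:206159395-206159694, - strand), with ETS 157 before and YY1 15 after; COX5B (chr2:97645812-97646111, + strand), with ETS 37 and 5 before. COX7A2 (chr6:75250249-75250548, - strand) held none of the 6 words, and at 37.0% GC it was the lowest of the members, whose median was 62.8% (65.7% in listed genes). Sequences read 5′ to 3′ on the strand of the gene, from RefSeq, with NRF1, ETS and YY1 words in capitals.
SDHA: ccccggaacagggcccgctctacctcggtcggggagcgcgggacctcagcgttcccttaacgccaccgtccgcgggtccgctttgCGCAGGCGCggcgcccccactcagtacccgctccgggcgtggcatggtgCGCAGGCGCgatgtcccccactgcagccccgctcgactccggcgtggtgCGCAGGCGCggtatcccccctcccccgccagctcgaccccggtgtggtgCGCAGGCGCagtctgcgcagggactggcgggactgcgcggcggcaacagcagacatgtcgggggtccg
UQCRFS1: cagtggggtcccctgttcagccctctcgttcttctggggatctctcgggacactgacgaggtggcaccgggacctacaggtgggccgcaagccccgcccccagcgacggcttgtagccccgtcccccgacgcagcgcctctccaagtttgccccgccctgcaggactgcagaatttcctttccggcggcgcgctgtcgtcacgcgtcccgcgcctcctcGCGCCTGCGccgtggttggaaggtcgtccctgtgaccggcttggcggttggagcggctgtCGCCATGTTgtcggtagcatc
SDHB: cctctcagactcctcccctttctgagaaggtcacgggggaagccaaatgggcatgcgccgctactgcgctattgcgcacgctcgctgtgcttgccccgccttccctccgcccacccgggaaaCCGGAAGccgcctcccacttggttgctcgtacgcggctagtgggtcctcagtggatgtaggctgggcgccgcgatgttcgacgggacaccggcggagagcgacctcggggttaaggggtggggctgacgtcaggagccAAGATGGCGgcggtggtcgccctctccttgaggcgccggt
NDUFS1: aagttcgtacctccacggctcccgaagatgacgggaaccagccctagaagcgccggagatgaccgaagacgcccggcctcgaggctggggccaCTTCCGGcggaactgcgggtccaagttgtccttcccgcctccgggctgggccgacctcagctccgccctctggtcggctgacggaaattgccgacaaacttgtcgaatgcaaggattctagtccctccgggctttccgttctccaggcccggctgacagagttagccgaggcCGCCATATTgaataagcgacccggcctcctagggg
COX5B: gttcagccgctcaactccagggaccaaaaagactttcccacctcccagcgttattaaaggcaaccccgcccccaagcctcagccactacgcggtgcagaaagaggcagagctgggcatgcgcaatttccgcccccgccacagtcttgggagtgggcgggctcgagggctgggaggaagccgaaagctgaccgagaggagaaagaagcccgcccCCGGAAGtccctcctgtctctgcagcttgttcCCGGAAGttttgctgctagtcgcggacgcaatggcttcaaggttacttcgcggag
COX7A2: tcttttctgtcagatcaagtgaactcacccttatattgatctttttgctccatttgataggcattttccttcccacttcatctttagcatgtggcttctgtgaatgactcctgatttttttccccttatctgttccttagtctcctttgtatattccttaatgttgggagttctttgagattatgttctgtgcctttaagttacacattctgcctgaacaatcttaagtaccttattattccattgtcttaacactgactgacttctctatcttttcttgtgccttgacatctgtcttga

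Several members also start back to back with another gene. A start on the opposite strand within 1000 bases was found for 16 of 62 members (25.8%), against 20.1% of listed protein-coding genes. NDUFA4 and LOC107986767 start at the same base (a distance of 0), and MRPL36 starts inside NDUFS6 (a distance of -34). The next closest pairs were NDUFS1 with EEF1B2 (6 bases), UQCRH with LRRC41 (15), NDUFB5 with MRPL47 (44), ATP5F1A with HAUS1 (51) and NDUFB1 with CPSF2 (52). Reads near such a shared start cannot be given to one gene alone.

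Values are reads per 1000000 reads of a library (RPM) over each gene's whole listed span, and levels below are divided by that span (RPM per kb). The 14 libraries held 17181179 to 62368915 reads, and 3 reads were worth 0.0481 to 0.175 RPM. The 4 libraries of 19 h stood apart: 63.5% to 72.0% of their reads lay in listed nuclear genes, against 35.8% to 57.4% in the other 10. A gene-wide gain in them cannot be told apart from a more efficient immunoprecipitation, nor more bound cells from more RNAPII per cell, and results are therefore also given relative to the median gene. All 9 fibroblast markers were listed (COL1A1 at 13.6 RPM per kb in total RNAPII, VIM at 22.8), none of 2 blood or 4 striated muscle markers was, and of the keratinocyte and endothelial lists only KRT14 (0.106) and VWF (0.195) were.

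The listed spans matter for single members. In 43 members over 90% of the listed span lay in the RefSeq gene, but in 11 under 60% did, among them SDHD (26.8%), ATP5MG (27.2%), ATP5MC2 (27.4%), COX7A2L (36.5%) and ATP5MF (44.6%). 26 members shared over 5% of their span with another gene, and ATP5MGL, a gene related to the g subunit of ATP synthase, lies wholly inside CYB5R3. By listed span members were short, with a median of 12938 bases (799 to 132953) against 30115 over all listed genes. Of 62 members 41 were under 20 kb (66.1%, against 38.9%). The 4 complex II genes were the exception, at 33241 to 61084 listed bases, although the RefSeq gene of SDHD has only 8922.

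RNAPII was unevenly spread over the subunits of each complex. Across members the median level over the 7 libraries of an antibody was 0.948 RPM per kb in total RNAPII and 0.618 in Ser2, against 0.772 and 0.559 over all listed genes. ATP synthase genes were highest by complex in total RNAPII (median 1.35 RPM per kb), followed by complex IV (1.14), complex I (0.992), complex III (0.889) and complex II (0.556). The ranges of genes within a complex overlapped those of every other complex. The order by complex holds per kb only, and median spans ran from 8350 bases in ATP synthase to 36954 in complex II. Without division by span, complex II had the highest median in every library and complex III and ATP synthase the lowest. Per library and without division by span, members held 0.0660% to 0.165% of all reads.

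**Figure D1:**
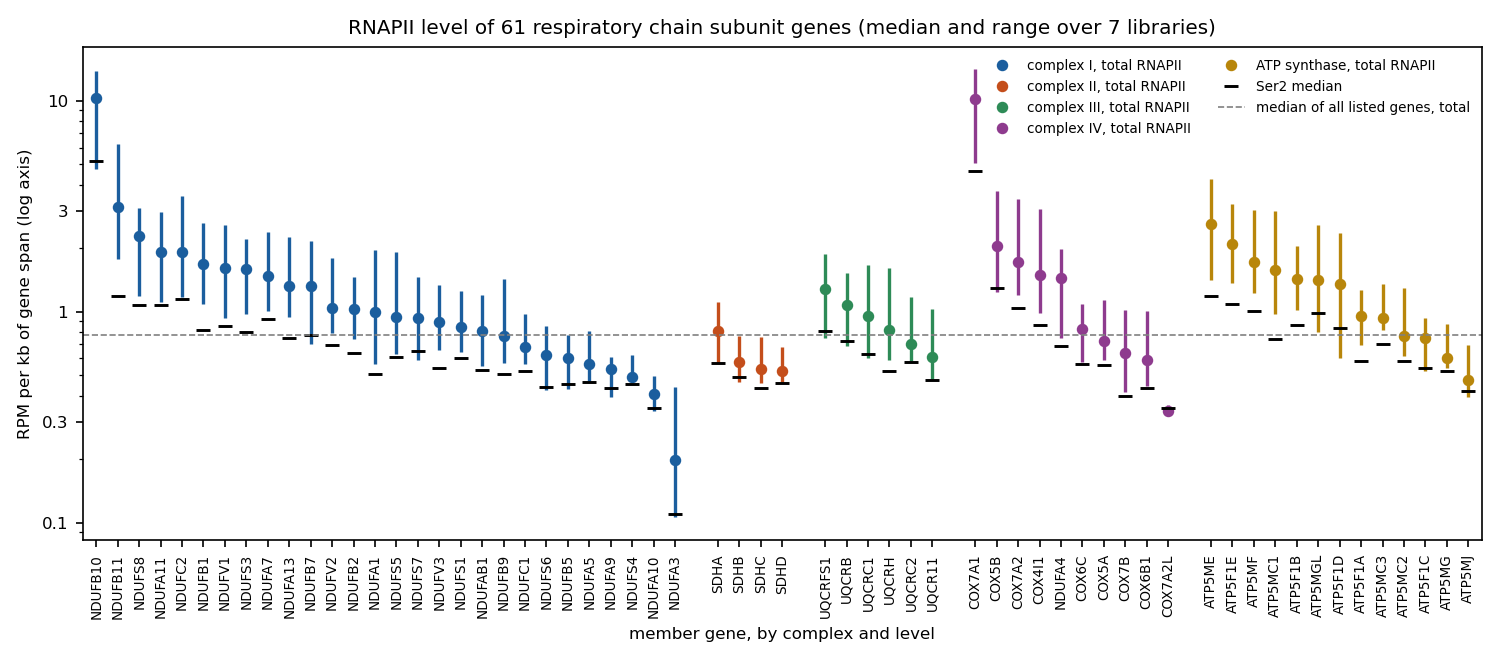
RNAPII level of 61 members in RPM per kb of listed span (log axis), by complex; points are medians and bars the lowest to highest of 7 total RNAPII libraries, black dashes the Ser2 median of 7 libraries and the dashed line the median of all listed genes in total RNAPII (0.772). NDUFB10 and COX7A1 lie at 10.3 and 10.2 RPM per kb and COX7A2L spans only 0.328 to 0.362.

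In complex I, NDUFB10, an accessory subunit of the membrane arm, had the highest level of any member. Its total RNAPII (ENSG00000140990, chr16:1959508-1961975, hg38) was 8.30 RPM per kb at 14 h, 10.3 and 7.72 at 16 h in DMSO and ATRi, 13.7 and 13.8 at 19 h, then 4.74 and 10.6 at 22 h. The 22 h DMSO library was lowest and the 19 h libraries highest, and DMSO and ATRi values overlapped. RPS2, a ribosomal protein gene at 10.8 RPM per kb, lies 76 bases away, and its part in the NDUFB10 level was not tested. NDUFB11, also of the membrane arm, followed at a median of 3.12 (1.77 to 6.21). Core subunits that carry the flavin or iron-sulfur clusters had lower levels than NDUFB10 and NDUFB11, but within the range of the accessory subunit genes. NDUFS8 was at 2.29, NDUFV1 at 1.62, NDUFV2 at 1.04, NDUFS7 at 0.928 and NDUFS1 at 0.850 RPM per kb. NDUFA3, a small accessory subunit, was lowest at 0.198 (0.106 to 0.441), on 10 to 134 reads per library.

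Complex II has only 4 subunits, and their genes were close to one another. In total RNAPII, SDHA, the flavoprotein that oxidises succinate, had a median of 0.813 RPM per kb, SDHB, its iron-sulfur partner, 0.578, and the membrane anchors SDHC and SDHD 0.534 and 0.520. In Ser2 the 4 lay between 0.434 and 0.571. Complex III genes ran from UQCRFS1, the Rieske iron-sulfur protein (1.29), through UQCRB (1.07), the core proteins UQCRC1 (0.958) and UQCRC2 (0.703) and the hinge protein UQCRH (0.821), to UQCR11 (0.611).

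Within complex IV the COX7A family was spread widely in level. COX7A1 is known as the heart and muscle form of subunit VIIa, COX7A2 as the widely expressed form, and COX7A2L as a relative that joins complexes III and IV. COX7A1 (ENSG00000161281, chr19:36150922-36152869, hg38) was at percentile 98 of listed genes by level although none of the 4 striated muscle markers was listed. Its total RNAPII was 5.08 RPM per kb at 14 h, 8.26 and 10.2 at 16 h in DMSO and ATRi, 14.1 and 12.9 at 19 h, then 5.52 and 11.7 at 22 h. COX7A2 (ENSG00000112695, chr6:75237675-75250323) was at 1.20, then 1.49 and 1.72, 3.44 and 3.24, and 1.42 and 2.49 in the same order. COX7A2L (ENSG00000115944, chr2:42333546-42425088) stayed between 0.328 and 0.362 in all 7. In every library COX7A1 was highest and COX7A2L lowest of the 3, with no overlap, and COX7A1 and COX7A2 were highest at 19 h. Most of the listed COX7A2L span (58144 of 91543 bases) lies outside its RefSeq gene, and its part in that low level was not tested.

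The other complex IV members lay between these. COX5B, which binds zinc, had a median of 2.06 RPM per kb in total RNAPII, COX4I1, the common form of subunit IV, 1.49, NDUFA4 1.45, COX6C 0.823, COX5A 0.728, COX7B 0.638 and COX6B1, which faces the space between the membranes, 0.591. In ATP synthase, the e subunit gene ATP5ME (2.62) and the epsilon gene ATP5F1E (2.09) were highest. The catalytic head genes were at 1.43 for ATP5F1B (beta), 0.956 for ATP5F1A (alpha), 0.754 for ATP5F1C (gamma) and 1.35 for ATP5F1D (delta). The 3 genes ATP5MC1, ATP5MC2 and ATP5MC3, which make the same c subunit of the rotor ring, differed at 1.57, 0.768 and 0.932. Their ranges over libraries overlapped, but within every total RNAPII library ATP5MC1 was highest and ATP5MC2 lowest. Only 27.4% of the listed ATP5MC2 span and 65.3% of that of ATP5MC3 lie in their RefSeq genes.

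Subunit genes of short listed span carried less Ser2 relative to total RNAPII than the median gene, and the few of long span carried more. Each library was centred on its median gene, and the Ser2 to total difference was tested over the 7 pairs of libraries of 1 condition with limma. Of 62 members 9 were higher (30.1% of 12000 genes were) and 22 were lower (24.5% of genes), at Benjamini-Hochberg adjusted p under 0.05. The member median was -0.09 on the log2 scale, against 0.01 over all genes. On the deposited scale, where Ser2 is lower nearly everywhere, the counts were 0 higher (3.79% of genes) and 59 lower (78.7%), so directions hold relative to the median gene only.

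By complex, complex I had 4 higher and 12 lower of 29, complex II 2 higher and 0 lower of 4, complex III 0 and 0 of 6, complex IV 2 and 4 of 10, and ATP synthase 1 and 6 of 13. NDUFB11 was the lowest member: its difference was -0.49 at 14 h, -0.88 and -0.47 at 16 h in DMSO and ATRi, -0.82 and -0.73 at 19 h, then -0.48 and -0.90 at 22 h. All 7 conditions were below 0, and the mean was -0.68 ± 0.07 (moderated SE, limma, adjusted p = 0.000116). Next came the accessory subunit gene NDUFB1 (-0.46 ± 0.06, limma adjusted p = 0.000232), ATP5MC1 (-0.43 ± 0.08, limma adjusted p = 0.000864) and NDUFA1 (-0.42 ± 0.08, limma adjusted p = 0.00122). Of these, ATP5MC1 is the shortest, at 3107 bases.

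COX7A2L was the highest member, with differences of 0.25 at 14 h, 0.67 and 0.43 at 16 h in DMSO and ATRi, 0.34 and 0.21 at 19 h, then 0.25 and 0.44 at 22 h. All were above 0, with a mean of 0.37 ± 0.06 (limma adjusted p = 0.000308). NDUFA10 (0.22 ± 0.04, limma adjusted p = 0.00137), NDUFS4 (0.20 ± 0.04, limma adjusted p = 0.00272) and NDUFA5 (0.20 ± 0.06, limma adjusted p = 0.0107), accessory subunits of complex I, followed. NDUFA9, ATP5MG, COX6C, SDHC and SDHD completed the 9. SDHA (-0.01 ± 0.04, limma adjusted p = 0.806) and SDHB (0.11 ± 0.05, limma adjusted p = 0.0753) did not pass. Over conditions, 8 members were above 0 in all 7 and 14 were below 0 in all 7. The share of all genes that did so was not counted, so these counts describe the members alone.

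**Figure D2:**
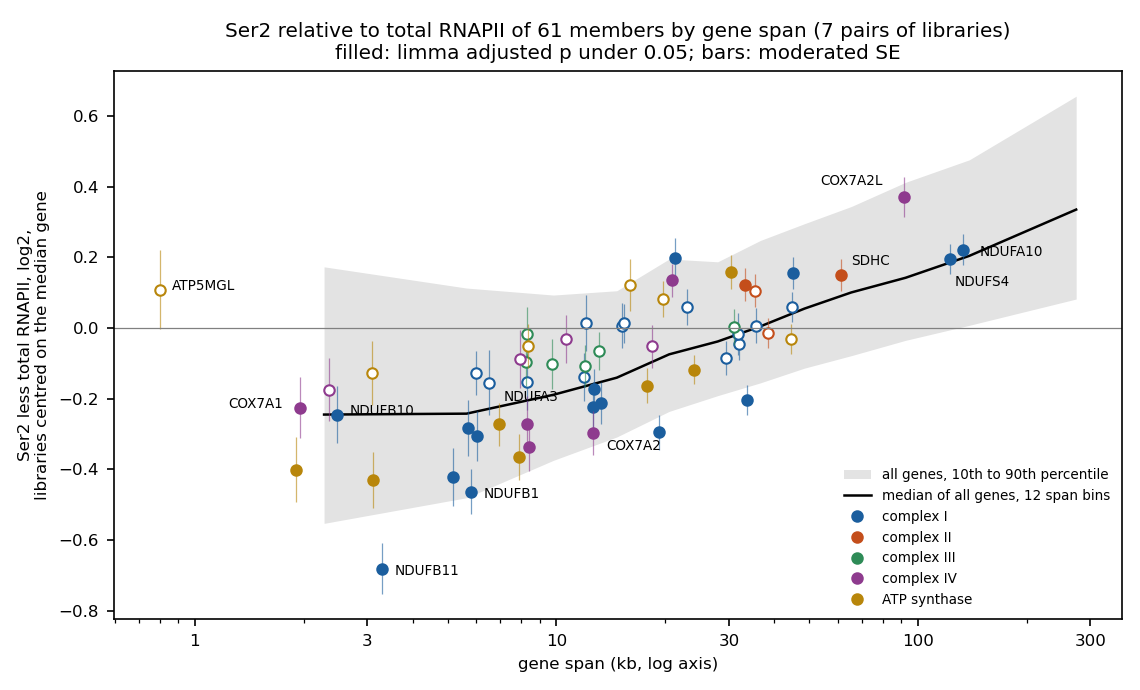
Ser2 less total RNAPII (log2, libraries centred on the median gene) of 61 members against gene span in kb (log axis), mean of 7 pairs with moderated SE, filled where limma's adjusted p was under 0.05; the line and band are the median and spread (10th to 90th percentile) of all genes by span. The members follow the line from below 0 at short listed spans to above 0 at long ones, and NDUFB11 lies furthest under it.

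The difference moved with span in members and in all genes alike. Spearman's rho with span was 0.68 over the 62 members and 0.66 over 12000 genes, which share libraries, so no test is given. Under 5 kb, 0 of 8 members were higher (5.54% of genes of that span) and 5 lower (56.3%), with a median of -0.23 against -0.25 for all genes of that span. At 40 kb or more 5 of 7 were higher (56.8%) and none lower (3.17%), with 0.16 against 0.15. With the trend on gene length removed, 9 were higher (22.2% of genes were) and 6 lower (18.8%), and 6 of the 9 and 6 of the 22 kept their call. COX7A2L, NDUFA5, NDUFA9, SDHD, COX6C and ATP5MG stayed higher, and NDUFB11, NDUFB1, NDUFS3, NDUFV3 and ATP5F1B were among those that stayed lower. With the trend on read density removed instead, 4 were higher (15.0% of genes) and 9 lower (16.9%), and 1 and 8 were shared with the first counts. Of the 9 higher members, 4 (NDUFA10, NDUFA5, NDUFA9 and NDUFS4) have over 90% of the listed span in their RefSeq gene. ATP5MG and SDHD, also among the 9, have RefSeq genes of only 8242 and 8922 bases. In the bin of 40 kb or more, ATP5MC2 and COX7A2L have RefSeq genes of 16254 and 33399 bases. The listed span of NDUFA5 (21259 bases) covers only a part of its RefSeq gene (64655 bases).

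At 19 h Ser2 on the respiratory chain genes was higher than at 16 h in 60 of the 61 members that passed a mean of 1 RPM (limma, 85.9% of 11989 genes were also higher), and none was lower (5.67% of genes). The median difference was 1.03 on the log2(RPM + 0.5) scale, against 0.90 over all genes. COX7A2L was the exception, at 0.17 ± 0.09 (limma adjusted p = 0.0880). ATP5MGL, among the 60, met that mean only with its 19 h values (1.69 and 1.16 RPM, against 0.563 to 1.20 at 16 and 22 h). Its call is therefore not independent of the filter. Among libraries, both 19 h values lay above all 5 others in 61 of 62 members in Ser2 (87.0% of genes) and in 60 of 62 in total RNAPII (80.7%). Most genes of the table shared this gain.

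Relative to the median gene, members parted. With each library centred, 25 of 61 were higher at 19 h (35.4% of genes) and 8 lower (31.4%), with a median of 0.17 against 0.04. COX7A2 rose most, by 0.94 ± 0.10 (limma adjusted p = 3.85e-08). Its Ser2 level was 0.806 RPM per kb at 14 h, 0.756 and 0.704 at 16 h in DMSO and ATRi, 2.56 and 2.68 at 19 h, then 1.04 and 1.42 at 22 h. The 19 h values were 3.39 times the 16 h value in DMSO and 3.81 times in ATRi, with no overlap with any other library. NDUFC2, a small subunit of the complex I membrane arm, rose by 0.81 ± 0.10 (limma adjusted p = 8.91e-08), COX7A1 by 0.68 ± 0.11 (limma adjusted p = 5.66e-06) and NDUFV2, a core iron-sulfur subunit, by 0.67 ± 0.10 (limma adjusted p = 1.81e-06). NDUFC2 shares 97.0% of its span with other RefSeq genes, the readthrough NDUFC2-KCTD14 among them, so its reads cannot be told from theirs.

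COX7A2L fell most relative to the median gene, by 0.68 ± 0.09 on the log2 scale (limma adjusted p = 3.63e-07). Only 36.5% of the span counted for COX7A2L lies in its RefSeq gene, and 40.1% is shared with KCNG3, so its values are not those of this gene alone. Over that span its Ser2 level was 0.326 RPM per kb at 14 h, 0.348 and 0.30 at 16 h, 0.364 and 0.367 at 19 h, then 0.356 and 0.345 at 22 h, nearly level across all 7 libraries. NDUFA9 (-0.48 ± 0.09, limma adjusted p = 0.000105), NDUFA10 (-0.40 ± 0.08, limma adjusted p = 0.000158) and NDUFB5 (-0.34 ± 0.11, limma adjusted p = 0.00734) came next. ATP5MJ, NDUFC1, NDUFS4 and SDHC completed the 8. By complex, complex I had 15 higher and 5 lower, complex III 2 and 0, complex IV 4 and 1, and ATP synthase 4 and 1. Complex II had 0 higher and 1 lower, with SDHA at 0.05 ± 0.09, SDHB at -0.16 ± 0.10, SDHC at -0.20 ± 0.08 and SDHD at -0.18 ± 0.10. All of these 8 were higher than at 16 h on the deposited scale except COX7A2L, which did not pass there.

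**Figure D3:**
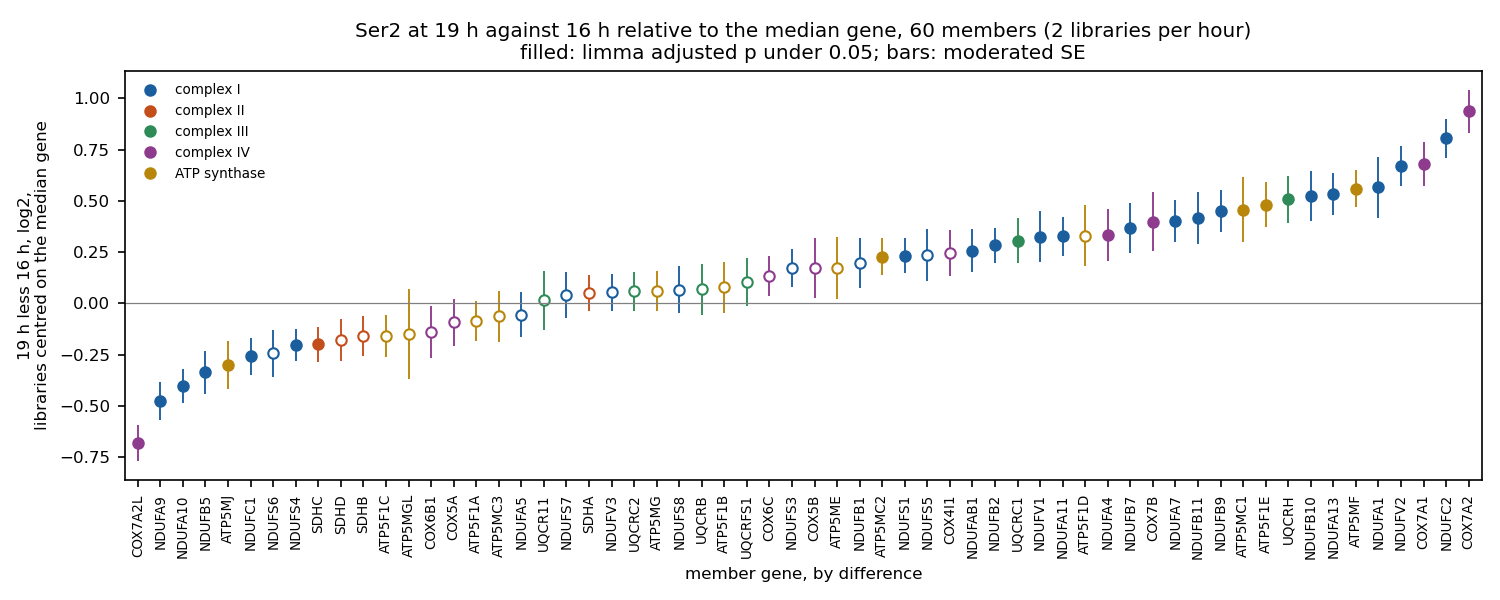
Ser2 at 19 h less 16 h (log2, libraries centred on the median gene) for 60 of the 61 members tested, ordered by value, with moderated SE from 2 libraries per hour and filled points where limma's adjusted p was under 0.05. COX7A2L (36.5% of its listed span in its RefSeq gene) is lowest at -0.68 and COX7A2 highest at 0.94.

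This spread also ran with listed span. Under 5 kb, 4 of 8 members were higher and none lower relative to the median gene (51.6% and 8.71% of genes of that span). At 40 kb or more 2 of 7 were higher (22.1%) and 5 lower (49.6%), with a median of -0.20 against -0.19 for all genes of that span. With the length trend removed, 12 of 61 were higher (32.4% of genes) and 9 lower (29.7%), with COX7A2, NDUFC2, COX7A1, NDUFV2 and UQCRH among the higher and COX7A2L, NDUFA9, NDUFB5, NDUFC1 and ATP5MJ among the lower. With the density trend removed, 7 were higher (18.5% of genes), COX7A2, NDUFC2, NDUFV2 and UQCRH among them, and 1, NDUFS8, was lower (12.5%). Of the 8 lower members, NDUFA9, NDUFA10, NDUFB5 and NDUFS4 have over 90% of their span in the RefSeq gene.

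**Figure D4:**
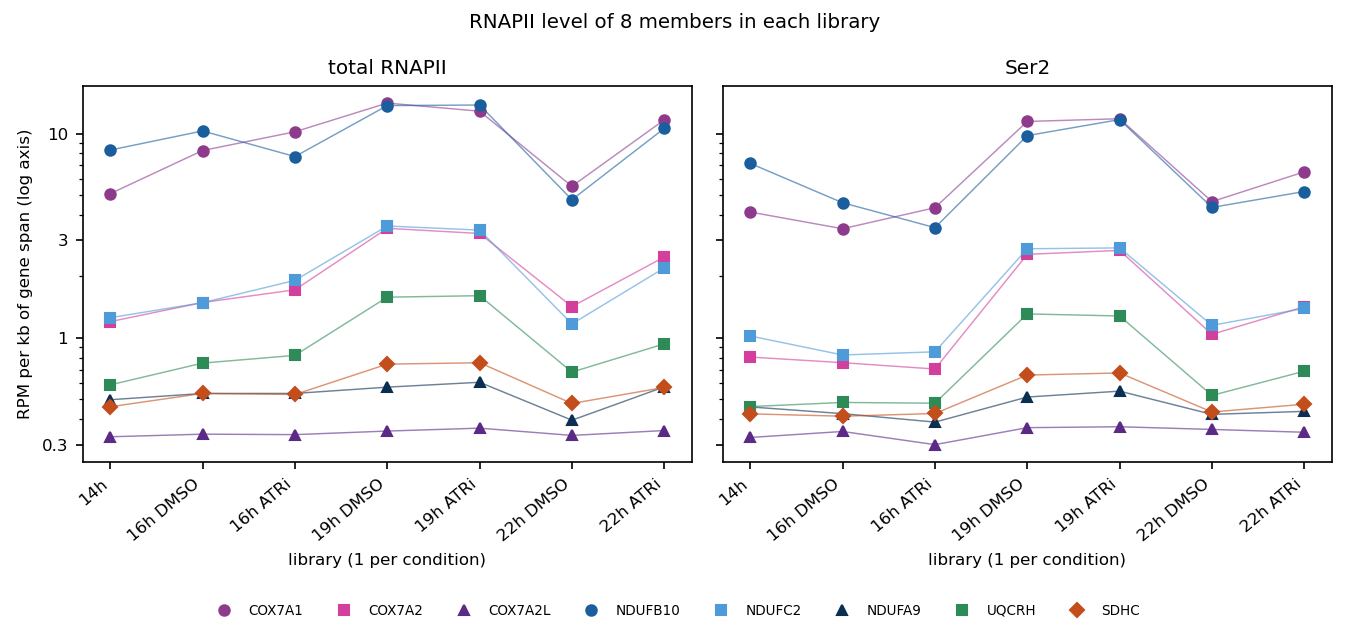
Level in RPM per kb of listed span (log axis) of 8 members in each library, total RNAPII left and Ser2 right, 1 library per condition; lines join the values of a gene. COX7A1, COX7A2, NDUFC2 and UQCRH peak in both 19 h libraries while COX7A2L (36.5% of its listed span in its RefSeq gene) stays between 0.30 and 0.367.

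Total RNAPII gave fewer calls. At 19 h 23 of 62 members were higher than at 16 h (limma, 39.8% of 12031 genes) and 0 lower (2.35%), with a median of 0.59 against 0.54 on the log2(RPM + 0.5) scale. The count by complex was 11 of 29 in complex I, 0 of 4 in complex II, 4 of 6 in complex III, 4 of 10 in complex IV and 4 of 13 in ATP synthase. COX7A2 (1.04 ± 0.26, limma adjusted p = 0.00540), NDUFC2 (1.01 ± 0.27, limma adjusted p = 0.00704), NDUFB11 (1.00 ± 0.30, limma adjusted p = 0.0137) and UQCRH (0.99 ± 0.28, limma adjusted p = 0.0106) were highest. COX7A2L (0.08 ± 0.24), NDUFA9 (0.14 ± 0.26), NDUFA10 (0.30 ± 0.23) and NDUFB5 (0.32 ± 0.28) were lowest and did not pass.

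Relative to the median gene, COX7A2 alone was higher in total RNAPII at 19 h (0.56 ± 0.14, limma adjusted p = 0.0410, 3.75% of genes), and none was lower (6.35%). COX7A2 was also the member that edgeR called on recovered reads. No call was left without the 16 h DMSO, the 16 h ATRi or the 19 h DMSO library (0.133%, 0.0166% and 0.141% of genes), 4 were left without 19 h ATRi (7.0%), and 59 were made without either 22 h library (76.9%). The count of 23 thus moved with the library left out, while the member median stayed between 0.44 and 0.78. Each such fit has fewer libraries, and the cause of the changed counts was not tested.

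At 22 h Ser2 was still above 16 h on many of the genes. Of 61 members 28 were higher (limma, 39.0% of genes) and 0 lower (0.918%), with a median of 0.27 against 0.21 on the log2(RPM + 0.5) scale. They were 14 of 28 in complex I, 3 of 4 in complex II (SDHA, SDHB and SDHD), 2 of 6 in complex III (UQCRC1 and UQCRC2), 2 of 10 in complex IV (COX7A1 and COX7A2) and 7 of 13 in ATP synthase. COX7A2 (0.71 ± 0.12, limma adjusted p = 0.000246), NDUFC2 (0.57 ± 0.10, limma adjusted p = 0.000484), COX7A1 (0.49 ± 0.12, limma adjusted p = 0.00329) and ATP5MC1 (0.48 ± 0.16, limma adjusted p = 0.0232) were highest, and ATP5F1C (-0.00 ± 0.11), NDUFA5 (0.04 ± 0.11), NDUFB5 (0.05 ± 0.11) and NDUFA9 (0.08 ± 0.10) lowest. This comparison shares its 16 h libraries with that at 19 h.

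Relative to the median gene only COX7A2 (0.48 ± 0.10, limma adjusted p = 0.00262) and NDUFC2 (0.35 ± 0.10, limma adjusted p = 0.0125) were higher at 22 h in Ser2 (10.2% of genes), and 0 members were lower (10.5%). Without the 22 h ATRi library the 28 calls became these same 2 (13.6% of genes), and without 16 h ATRi 7 were left (20.0%).

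In total RNAPII no member differed between 22 h and 16 h, and no gene did (limma, 0 of 12031, with 0 members and 2.95% of genes at an unadjusted p under 0.05, and 0 members by edgeR). The DMSO and ATRi libraries moved apart. From 16 to 22 h the member median was -0.41 in DMSO (-0.26 over all genes) and 0.20 in ATRi (0.14). The highest estimates were COX7A2 (0.23 ± 0.26), SDHD (0.14), NDUFS4 (0.13) and SDHB (0.12), and the lowest ATP5MGL (-0.45), NDUFA4 (-0.38), NDUFA11 (-0.33) and NDUFS8 (-0.32). Without the 22 h ATRi library 34 members were lower (34.0% of genes), and without 22 h DMSO COX7A2 was higher (3.33%).

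No respiratory chain gene was called different between ATRi and DMSO over the 3 hours. In total RNAPII limma called 0 of 62 members and 0 of 12031 genes, edgeR on recovered reads 0 members, and 0 members and 1.70% of genes had an unadjusted p under 0.05. In Ser2 limma called 0 of 61 members and 0 of 11989 genes and edgeR 0 members. At an unadjusted p under 0.05 limma had 13 members, all higher in ATRi, and 22.1% of genes, and edgeR 2 members. Each hour gives a single pair of libraries, so the hours are described one by one.

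At 16 and 19 h the members lay around 0 in total RNAPII. The median ATRi to DMSO difference on the log2(RPM + 0.5) scale was -0.00 at 16 h (0.05 over all genes) and -0.04 at 19 h (-0.03). At 16 h 31 of 62 were above 0 (63.4% of genes were), and at 19 h 21 were (40.4% of genes). The extremes at 16 h were NDUFB10 at -0.41 and NDUFA4 at 0.46. At 22 h all 62 members were above 0 (88.9% of genes were), with a median of 0.64 against 0.50 over all genes. Relative to the median gene, 42 were above it, and the exact 95% counting interval lay above it in 22 members and below it in 6. This interval covers counting error only. It was not computed for other genes, so the 22 and 6 have no share over all genes beside them. The standard deviation of the difference was 0.25 over members and 0.37 over all genes. The 22 h DMSO library had the lowest share of reads in listed genes of the total RNAPII set (42.8%, against 57.4% in its ATRi partner), and its part in the difference was not tested.

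NDUFA1, an accessory subunit needed to assemble complex I, was highest at 22 h (1.20), at 0.566 RPM per kb in DMSO and 1.42 in ATRi. NDUFB10 (1.13), COX7A1 (1.05) and UQCRFS1 (1.00) followed. COX7A2L (0.08), SDHD (0.17), COX5A (0.19), NDUFS4 (0.23) and SDHC (0.26) were lowest. By complex the median relative to the median gene was 0.14 in complex I, 0.16 in complexes III and IV, 0.15 in ATP synthase and -0.21 in complex II, where SDHA alone was above it. Listed spans ran from 1948 to 8221 bases in the named highest members and from 18378 to 122708 in the named lowest. Over all genes, Spearman's rho of the 22 h less 16 h difference with span was 0.48 in DMSO and -0.15 in ATRi. Over the 3 hours together the member median was 0.20 (0.18 over all genes), and -0.01 (0.00) with the length trend removed. The part of span at 22 h alone was not tested.

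**Figure D5:**
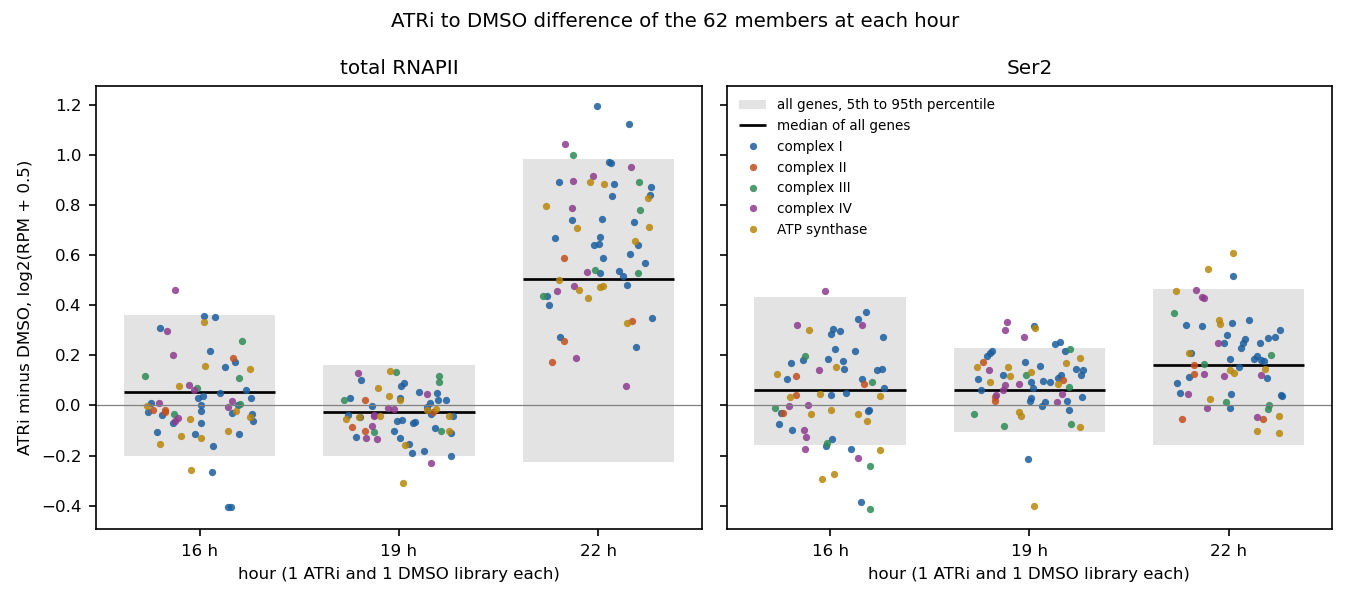
ATRi less DMSO on the log2(RPM + 0.5) scale for each of the 62 members at 16, 19 and 22 h, total RNAPII left and Ser2 right, 1 pair of libraries each; grey boxes are the spread (5th to 95th percentile) and black lines the median of all genes. In total RNAPII at 22 h all members are above 0 and spread around the median gene at 0.50, and the other 5 sets of points scatter close to their median gene.

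In Ser2 the member median of the ATRi to DMSO difference was above 0 at each hour. It was 0.04 at 16 h (0.06 over all genes), 0.10 at 19 h (0.06) and 0.18 at 22 h (0.16). At 19 h 52 of 62 members were above 0 (75.1% of genes were), and at 22 h 53 were (80.7% of genes). Over the 3 hours ATP5F1E had the highest estimate (0.33 ± 0.10, limma adjusted p = 0.0935), then COX5B (0.28 ± 0.12, limma adjusted p = 0.167), COX7A1 (0.28 ± 0.09, limma adjusted p = 0.116) and NDUFV1, the subunit that oxidises NADH (0.26 ± 0.10, limma adjusted p = 0.157). UQCR11 (-0.12 ± 0.12) and COX7A2L (-0.08 ± 0.08) were lowest, followed by ATP5F1B and ATP5F1D at -0.03. Without the 19 h pair ATP5F1E and COX7A1 passed, as 2 of 846 genes (7.09%).

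In total RNAPII the highest estimates over the 3 hours were NDUFA4 (0.44 ± 0.24), COX7A1 (0.40 ± 0.23), NDUFC2 (0.39 ± 0.22) and NDUFA1 (0.39 ± 0.24), all at a limma adjusted p of 0.767, and the lowest COX5A (0.00), NDUFS7 (0.02), SDHD (0.02) and COX7A2L (0.04). Some members kept 1 side of the median gene at all 3 hours. In total RNAPII 7 were above it (ATP5F1E, COX5B, COX6C, NDUFA3, NDUFB2, UQCR11 and UQCRC2; 8.27% of genes) and 7 below (ATP5F1C, ATP5MJ, COX5A, COX7B, NDUFA10, NDUFB5 and SDHD; 6.89%). In Ser2 14 were above (16.0%), all of them complex I genes except ATP5F1E, ATP5MF and COX6C, and 5 were below (ATP5F1D, COX7A2L, NDUFC1, NDUFS4 and SDHC; 16.9%).

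The ATRi difference in Ser2 less that in total RNAPII gave 0 calls among members and among all genes tested (limma, 0 members at an unadjusted p under 0.05). The lowest estimates were UQCR11 (-0.36 ± 0.23), UQCRB (-0.34), NDUFA4 (-0.33) and ATP5F1D (-0.32), and the highest NDUFS7 (0.20 ± 0.24), COX5A (0.11), NDUFAB1 (0.06), the acyl carrier protein of complex I, and NDUFA13 (0.05).

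From 14 h to 16 h in DMSO only single libraries can be set side by side. The member median was 0.35 in total RNAPII (0.26 over all genes) and -0.11 in Ser2 (-0.07). In total RNAPII 61 of 62 were above 0 (86.9% of genes were), and in Ser2 14 were (35.0% of genes). Relative to the median gene in total RNAPII, ATP5F1D was highest at 0.57 and COX6B1 lowest at -0.30.

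Other gene lists are given for scale. In Ser2 at 19 h against 16 h relative to the median gene, 14 of 40 assembly factors were higher and 6 lower, 24 and 11 of 65 mitochondrial ribosomal protein genes, 5 and 4 of 16 citric acid cycle genes, and 1 and 5 of 12 regulators of mitochondrial biogenesis. Of 6 further oxidative phosphorylation genes, CYC1, CYCS and ATP5PD were higher and ATP5PO lower. Among 35 proteasome subunit genes, a non-mitochondrial list, 23 were higher and 1 lower. In Ser2 relative to total RNAPII the assembly factors had 7 higher and 13 lower and the mitochondrial ribosomal protein genes 13 and 28. The ribosomal list has a median span of 12560 bases, close to the 12938 of the members. ATRi gave 0 calls in each of these lists.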

How the data were processed

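The deposited table gives RPM per gene and library, as computed by the authors over the whole gene span on hg38 and not divided by length. The tools named are Bowtie2 2.3.3.1 and SAMtools 1.4, per the submitters' processing notes. The counting tool, annotation and duplicate handling are not given in the sources used here. Ensembl identifiers were named by position against RefSeq GRCh38.p14 genes (11437 of 12425 named, 716 of them, with 13 members, by a looser second pass). Every value was a whole number of reads (100% of values, tolerance 0.01 reads), from which library totals were recovered.

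Differences were fitted in R 4.3.3 with limma 3.58.1 (two-sided, moderated with a trend) on log2(RPM + 0.5). Genes entered a fit if they averaged 1 RPM or more over its libraries, and p-values were adjusted by Benjamini-Hochberg over all nuclear genes tested at 0.05. ATRi was tested per antibody with hour as a block, hours with treatment as a term, and Ser2 against total RNAPII over 7 pairs after centring each library on its median gene. Alternatives were pseudocounts of 0.1 and 1 RPM, no filter, centring, removal of length or density trends, edgeR 4.0.16 with TMM on recovered reads, leaving out overlapping members, and leaving out each library, pair or hour. The fits were also run on simulated reads that lack the gene-wide shifts between these libraries, so that run does not bear on the calls above. Members and lists were chosen with earlier results of these data known. Named were the 4 highest and 4 lowest estimates per comparison, all calls where 8 or fewer, and fixed members of each complex. Other named members were chosen after their values were seen. Values of 1 member are not reported here, and it is left out of the plots of single members, but counts and medians include it.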

Additional observations from a re-analysis of the deposited data

How the results depend on the processing

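Counts of members are given as higher or lower calls by limma at adjusted p under 0.05. Pseudocounts of 0.1 and 1 RPM and no filter kept each count within 1.5 times. Among the 36 members that share at most 5% of their span with another gene, calls were 36 higher at 19 h in Ser2, 11 higher at 19 h in total RNAPII, 16 higher at 22 h in Ser2, and 5 higher and 11 lower for Ser2 against total RNAPII. No share over all genes is given for this subset, so these counts describe the members alone. For 19 h against 16 h in Ser2, 60 higher and 0 lower became 25 and 8 with centring (35.4% and 31.4% of genes). They became 12 and 9 with the length trend removed (32.4% and 29.7%) and 7 and 1 with the density trend removed (18.5% and 12.5%). By edgeR they were 23 and 8 (33.3% and 31.6%). With 1 library left out the member median lay at 1.00 to 1.07 on the log2 scale. In total RNAPII, 23 higher became 1 with centring (3.75% of genes) and 1 by edgeR (3.15%). They became 3 with the length trend removed (8.12%) and 3 with the density trend removed (9.51%). With the length trend removed 1 was lower (12.5%). With 1 library left out the member median lay at 0.44 to 0.78. For 22 h against 16 h in Ser2, 28 higher became 2 with centring (10.2% of genes) and 2 by edgeR (8.79%). They became 2 with the length trend removed (8.91%) and 1 with the density trend removed (4.91%). With 1 library left out the member median lay at 0.23 to 0.31. In total RNAPII, 0 higher became 1 with the density trend removed (0 to 1 with 1 library left out) and 0 lower became 0 to 34. For Ser2 against total RNAPII, 9 higher and 22 lower became 0 and 59 on the deposited scale (3.79% and 78.7% of genes). They became 9 and 6 with the length trend removed (22.2% and 18.8%) and 4 and 9 with the density trend removed (15.0% and 16.9%). By edgeR they were 9 and 27 (29.7% and 25.9%). With 1 pair left out they were 7 to 9 (25.5% to 30.1%) and 17 to 24 (19.9% to 25.8%). ATRi calls in Ser2 were 0 to 2 with 1 hour left out. The 14 h to 16 h median of 0.35 in total RNAPII became 0.0917 with centring. The cause of these changes was not tested, beyond what centring, the removed trends and the smaller number of libraries do by construction. No paired analysis by replicate number was possible because each condition has 1 library, and pairs here are libraries of 1 condition or 1 hour. Depth limits NDUFA3 (10 to 134 reads per library) and ATP5MGL (11 to 75) most.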
